A study of Mus musculus with 39 samples.

Results

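The 8 genes described here, Cabp2, Crtam, Gprc5c, Aqp6, Ankrd34a, Adora1, Adap1 and Chn2, were chosen from the 24100 genes of the deposited table because their levels rise steeply to postnatal day 21 (P21) in ribosome-bound RNA of mouse cerebellar granule cells. All 8 were found in the table. Since that rise chose them, their values from P7 to P21 in these libraries are a description and carry no test. The samples are 39 libraries of polyadenylated RNA in 13 groups. Translating ribosome affinity purification (TRAP) pulls down an EGFP-tagged ribosomal protein, L10a, with the RNA on it. It was done on granule cell progenitors isolated at P7 from Tg(Atoh1-Egfp-L10a) mice (Math1 TRAP, 4 libraries; Math1 is an older name of Atoh1). It was also done on whole cerebellar lysates of Tg(NeuroD1-Egfp-L10a) mice at P7, P12 and P21 (Neurod1 TRAP, 5 libraries at each age), with 1 input library of total cerebellum per age. Tagged ribosomes come from whichever cells the Atoh1 or NeuroD1 sequences of the transgene are active in. Primary granule cells from C57Bl/6J mice aged P6 to P7 were collected at once (0 days in vitro, DIV0), after 2 days in DMSO, or after 5 days in DMSO or in 100 nM UNC1999, an inhibitor of the histone methyltransferases EZH2 and EZH1 (2 libraries each). Other cultures at DIV5 came from cells isolated at P7 from Ezh1(wt/wt);Atoh1-Cre mice (5 libraries, called wt) and Ezh1(fl/fl);Atoh1-Cre mice (4 libraries, called cKO). Both genotypes share the Cre transgene. The labels do not say which libraries came from separate animals or cultures, so p-values measure the spread between libraries, which may be technical.

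Granule cells are the small excitatory neurons of the cerebellar cortex. Their progenitors divide in the external granule layer after birth, leave the cell cycle, migrate inward and make parallel fibre synapses onto Purkinje cells, and mature granule cells switch on receptors, channels and signalling genes late in that course. The 8 genes are mostly signalling and membrane proteins. Adora1 encodes the adenosine A1 receptor, an inhibitory G protein coupled receptor that lowers transmitter release at parallel fibre synapses and is blocked by caffeine, so it is well studied in this tissue. Gprc5c is an orphan G protein coupled receptor of the class C group. Cabp2 is a calmodulin-like calcium sensor known from hair cells, where it tunes calcium channels. Chn2 is beta-chimaerin, which switches off the small GTPase Rac when bound by diacylglycerol, and Adap1 (centaurin alpha) is a phosphoinositide-binding protein that switches off Arf GTPases. Crtam is an immunoglobulin-family adhesion molecule of activated T and natural killer cells that binds Cadm1. Aqp6 is an aquaporin of intracellular vesicles, best known from the kidney, and Ankrd34a is an ankyrin repeat protein.

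The genes lie on 8 different chromosomes (GENCODE vM21, build GRCm38, the same assembly as mm10). Cabp2 is at chr19:4081578-4087340, Crtam at chr9:40969691-41004628, Gprc5c at chr11:114851152-114872617 and Aqp6 at chr15:99601400-99605477. Ankrd34a is at chr3:96596636-96599775, Adora1 at chr1:134199223-134235431, Adap1 at chr5:139271876-139325622 and Chn2 at chr6:54039554-54301810. Crtam, Adora1 and Adap1 are on the minus strand and the other 5 on the plus strand. Of the exonic bases of Adora1, 20.1% are also exonic in Mybph on the opposite strand, but Mybph had a mean of at most 0.299 CPM (a counts-per-million value) in any group. Exons of 9130019P16Rik cover 9.5% of those of Chn2 on the opposite strand, and its highest group mean was 4.08 CPM. Whether reads were assigned by strand is not given in the sources used here.

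RefSeq promoter windows were matched for 6 of the 8 genes, and none was matched for Crtam and Gprc5c. The windows below are the 250 bases before an annotated start, from RefSeq build GRCm38.p6, read 5′ to 3′ on the strand of the gene. They are shown because the genes rise together but their start regions differ in CpG content. Capitals mark CpG dinucleotides. The windows shown hold no annotated exon base, and those of Cabp2 and Chn2 lie before internal starts of their genes.
Cabp2, chr19:4082238-4082487, plus strand: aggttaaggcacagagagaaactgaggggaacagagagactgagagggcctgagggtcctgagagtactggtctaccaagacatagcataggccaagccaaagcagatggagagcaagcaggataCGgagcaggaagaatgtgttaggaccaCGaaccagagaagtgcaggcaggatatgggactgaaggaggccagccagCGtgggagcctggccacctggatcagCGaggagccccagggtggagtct
Aqp6, chr15:99600950-99601199, plus strand: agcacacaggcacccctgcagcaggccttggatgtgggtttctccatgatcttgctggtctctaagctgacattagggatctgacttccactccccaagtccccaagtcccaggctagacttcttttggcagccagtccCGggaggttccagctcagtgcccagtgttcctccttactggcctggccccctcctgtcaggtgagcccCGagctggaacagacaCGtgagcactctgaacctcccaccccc
Ankrd34a, chr3:96596386-96596635, plus strand: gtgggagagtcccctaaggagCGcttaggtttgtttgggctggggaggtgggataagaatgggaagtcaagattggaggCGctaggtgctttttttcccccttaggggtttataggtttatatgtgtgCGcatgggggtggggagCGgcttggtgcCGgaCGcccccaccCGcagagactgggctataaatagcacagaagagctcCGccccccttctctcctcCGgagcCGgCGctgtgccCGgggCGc
Adora1, chr1:134235458-134235707, minus strand: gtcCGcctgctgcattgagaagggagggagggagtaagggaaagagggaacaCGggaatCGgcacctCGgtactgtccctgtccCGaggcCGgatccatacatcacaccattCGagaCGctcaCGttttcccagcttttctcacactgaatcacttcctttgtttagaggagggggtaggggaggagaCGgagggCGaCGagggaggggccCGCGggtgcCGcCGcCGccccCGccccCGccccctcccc
Chn2, chr6:54264608-54264857, plus strand: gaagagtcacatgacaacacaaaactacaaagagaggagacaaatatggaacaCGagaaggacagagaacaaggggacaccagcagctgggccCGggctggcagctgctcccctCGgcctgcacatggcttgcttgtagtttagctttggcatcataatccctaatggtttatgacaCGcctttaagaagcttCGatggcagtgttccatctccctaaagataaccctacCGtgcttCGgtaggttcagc

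The Cabp2 window holds 4 CpG dinucleotides and the Aqp6 window 3, both below the median of 6 over 32851 such windows. The Ankrd34a window holds 13 and the Adora1 window 19. The window of Adap1, not printed since 158 of its bases are exonic, holds 39, more than 98.4% of all windows. The first window of Chn2, exonic throughout, holds 34, while the internal one printed holds 7. The 7 short motifs were searched as letters on either strand. The letters TATAAA stand in the Ankrd34a window and in 12.4% of all windows. The letters GGGCGG stand in those of Ankrd34a, Adora1 and Adap1 and in 32.7% of all. The letters CAGCTG, an E-box, stand in the printed Chn2 window and in 13% of all, and CAGATG, another E-box, in that of Cabp2 and in 14.4% of all. The letters TTGGCA, a partial nuclear factor I site, stand in the windows of Aqp6 and Chn2 and in 12.3% of all. CATATG (3.46% of all) and TGACGTCA (1.55%) stand in none of the 11 windows of these genes. No searched motif contains another.

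Total counts ran from 12084136 to 38546538 per library. The list of 9 mature granule cell markers summed to 1450 to 1880 CPM in the Neurod1 TRAP libraries at P7, 6460 to 7420 at P12 and 14500 to 16400 at P21. Summed markers of some other cells were also higher at P21. The 8 Purkinje cell markers, 7 of them called higher, summed to 232 to 329 CPM at P7 and 983 to 1170 at P21 (4810 in the P21 input). The 4 unipolar brush cell markers, 2 higher and 1 lower, summed to 114 to 204 and 1790 to 2370. Their median log2 fold change was 0.47, so that sum does not describe each of these markers. The 9 oligodendrocyte markers, 6 higher and 3 lower, summed to 332 to 431 and 784 to 1340. The part of these cells in the rises described next was not tested. In bulk RNA, fewer cells of a type and less RNA per cell cannot be told apart.

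In Neurod1 TRAP all 8 genes had their highest level at P21, where every library stood above each of the other 34, input and culture included. The same held for 13% of 16732 genes with at least 10 counts in some library, and since the rule chose high P21 levels nothing is read from the count. They differed in how low they began and in how much of the rise came before P12. Crtam rose latest. Its libraries read 1.16, 0.665, 0.985, 0.245 and 1.32 CPM at P7, 10.9, 20.7, 11.2, 13.5 and 17.9 at P12, and 252.6, 232.2, 140.4, 282.5 and 256.7 at P21. The ages did not overlap, and only 6.02% of the difference between the P7 and P21 means had been gained at P12. The mean at P21 was 232.9 ± 54.7 CPM (SD, n = 5), which is 266 times the P7 mean. The 10 T and natural killer cell markers summed to 0.571 to 0.927 CPM in the same P21 libraries, and 7 of them (Cd3e, Cd3g, Cd8b1, Nkg7, Klrb1c, Ncr1 and Gzmb) had at most 3 counts in every one.

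By the same share of the CPM difference, Aqp6 and Cabp2 also rose late, at lower levels. Aqp6 libraries read 0.824, 0.706, 0.857, 1.35 and 1.69 CPM at P7, 3.29, 2.66, 2.96, 2.97 and 3.9 at P12, and 33.0, 22.4, 21.5, 36.2 and 40.9 at P21, with 6.96% of the rise by P12. Cabp2 was close to absent at P7, with 1, 0, 2, 1 and 2 counts. At P12 it had 68, 61, 73, 63 and 76 counts, and at P21 it had 921, 621, 720, 900 and 895. Its mean was 2.79 ± 0.532 CPM at P12 and 32.4 ± 7.01 CPM at P21 (SD, n = 5), and 8.48% of the rise came by P12. Since the 5 P7 libraries held 6 counts in all, the ratio of summed counts, 676 for P21 over P7, has a 95% counting interval (exact binomial) of 310 to 1840. Intervals from counts cover counting error only, because the reads carry no molecular identifiers.

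Gprc5c, Chn2 and Adora1 had gained 25.6% to 30.5% of their rise at P12. Gprc5c libraries read 0.855, 0.415, 0.728, 0.368 and 1.10 CPM at P7, 39.6, 42.1, 32.7, 32.8 and 41.3 at P12, and 131.6, 127.7, 153.1, 157.9 and 157.3 at P21. The step from P7 to P12 was 54.5-fold and that from P12 to P21 3.86-fold, with 25.6% of the rise by P12. In proportion the early step was the larger for every gene of the 8 but Aqp6 (2.91-fold, then 9.77-fold). For Cabp2, with few counts at P7, the steps were 56.2-fold and 11.6-fold, and for Crtam 16.9-fold and 15.7-fold. Chn2, the most abundant of the 8, read 305.9, 247.2, 241.3, 216.6 and 208.5 CPM at P7, 1298, 1220, 1015, 1098 and 1132 at P12, and 3564, 3345, 3438, 3407 and 3495 at P21. Its mean rose 14.1-fold, with 28.4% of the rise by P12. Adora1 read 23.0, 22.6, 24.8, 18.5 and 22.2 CPM at P7, 165.6, 175.0, 232.8, 244.0 and 262.8 at P12, and 679.5, 758.4, 568.0, 617.6 and 667.8 at P21. Its mean rose 29.7-fold, with 30.5% of the rise by P12.

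By the same share of the CPM difference, Ankrd34a and Adap1 rose earliest. Ankrd34a read 28.2, 21.7, 20.98, 17.0 and 17.4 CPM at P7, 146.9, 136.7, 120.4, 121.8 and 124.6 at P12, and 267.3, 271.5, 280.3, 288.1 and 279.0 at P21, with 42.6% of the rise by P12. Adap1 read 131.3, 122.6, 120.9, 112.4 and 107.3 CPM at P7, 372.8, 374.2, 348.8, 336.4 and 339.5 at P12, and 557.5, 579.8, 580.0, 555.8 and 592.0 at P21. It had the smallest rise of the 8, 4.82-fold, and 51.9% of it came by P12, so on the CPM scale late-rising describes Adap1 least well. Of the 8, Adap1 had the highest P7 level as a share of its P21 level, 20.8%, and Cabp2 the lowest, 0.153%.

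**Figure D1:**
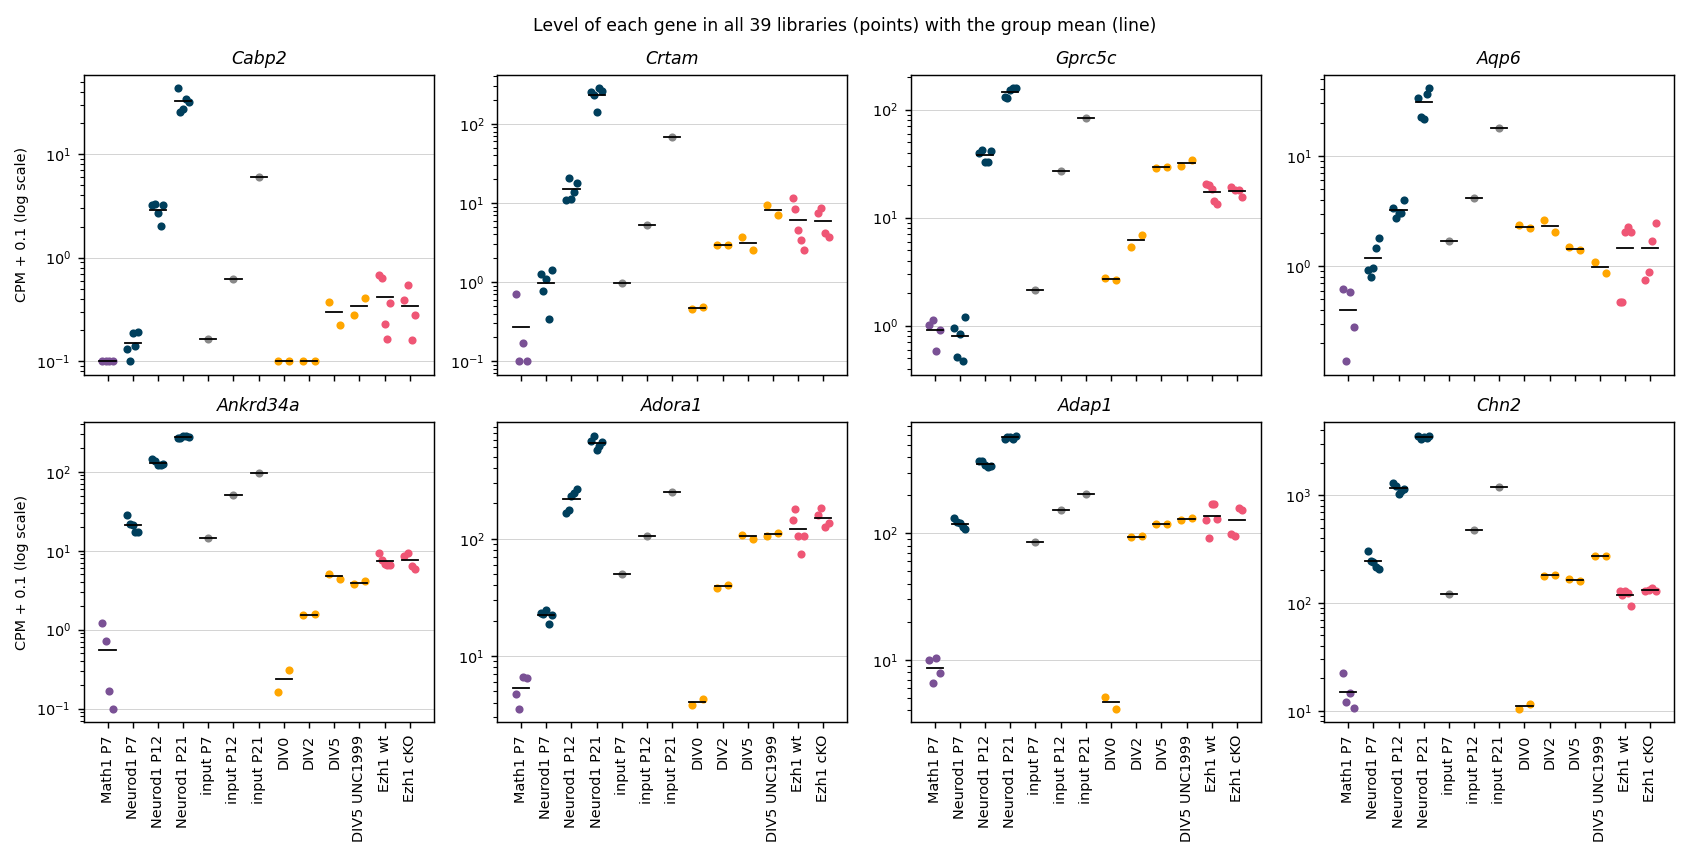
Level of each gene in each of the 39 libraries (points; vertical log axis in CPM with 0.1 added so that zeros can be drawn) by group, with the group mean as a line. In every panel the 5 Neurod1 P21 libraries are the highest, and the DIV5 cultures lie far below them.

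Levels between genes were compared per kilobase of exon (exons of all annotated transcripts merged). At P21 Chn2 stood at 594 ± 14.4 CPM per kb (SD, n = 5), followed by Adap1 at 174 ± 4.77, Adora1 at 114 ± 12.3 and Ankrd34a at 107 ± 3.12. Crtam followed at 45.4 ± 10.7 CPM per kb, Gprc5c at 27.7 ± 2.8, Cabp2 at 24.0 ± 5.19 and Aqp6 at 12.7 ± 3.54. The ranges of Adora1 (98.2 to 131) and Ankrd34a (103 to 112) overlapped, as did those of Crtam (27.4 to 55.1), Gprc5c (24.3 to 30.1) and Cabp2 (18.8 to 32.1). The other neighbours in this order did not overlap.

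**Figure D2:**
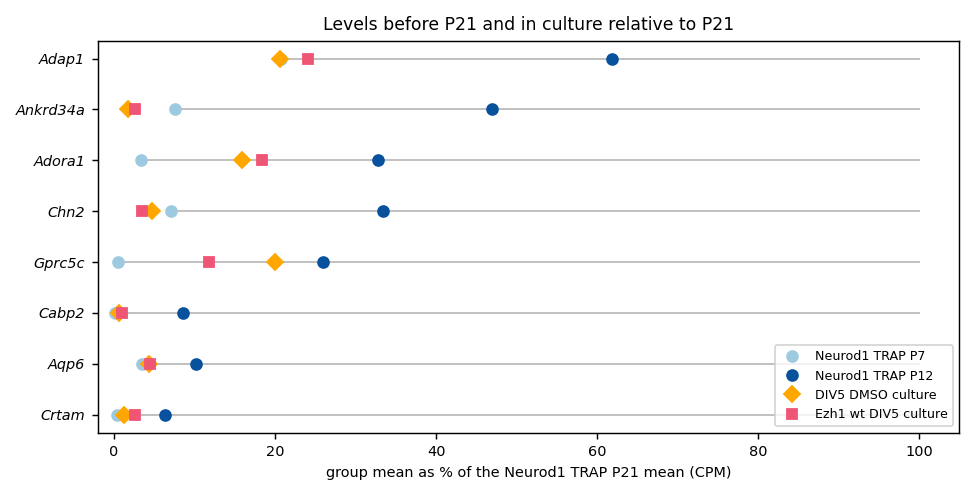
Group mean CPM as a percentage of the Neurod1 TRAP P21 mean of the same gene (horizontal axis), for P7 and P12 Neurod1 TRAP (circles), DIV5 DMSO culture (diamonds) and Ezh1 wt DIV5 culture (squares); genes are ordered by the share of the rise gained at P12. P12 levels run from 6.37% for Crtam to 61.8% for Adap1, and both cultures reach at most 24.05%, for Adap1.

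The input libraries, total cerebellar RNA, showed the same direction. They sample the tissue and ages in which the rise chose the genes, so they are not independent of that choice. With 1 input per age there is no replicate check. Crtam had 27 counts in the P7 input and 2083 in the P21 input, a 78.9-fold difference in CPM with a 95% counting interval of 54.1 to 120. Gprc5c differed 41.1-fold (32 to 53.7), Aqp6 11.2-fold (8.37 to 15.3), Chn2 9.68-fold (9.36 to 10.0) and Ankrd34a 6.82-fold (6.17 to 7.55). Adora1 differed 4.99-fold (4.73 to 5.28) and Adap1 2.41-fold (2.3 to 2.52). Cabp2 had 2 counts at P7 and 179 at P21, a ratio of 91.5 with an interval of 25 to 762. On CPM with 1 added, 7 of the 8, all but Adap1, were at least 4-fold higher in the P21 input. The same held for 2.32% of the 16174 genes with at least 10 counts in either input, and nothing is read from the count.

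Neurod1 TRAP was next set against input, to see how levels on the tagged ribosomes compare with those of the whole cerebellum. The TRAP libraries are those whose P7 to P21 rise chose the genes, which favours TRAP over input, so these differences are a description with no p-value. Averaged over the 3 ages, the log2 fold change was 2.32 ± 0.27 (SE) for Cabp2, the calcium sensor, 1.41 ± 0.31 for Crtam and 1.23 ± 0.11 for Chn2. Ankrd34a differed by 1.10 ± 0.15 and Adap1 by 0.98 ± 0.12. In the fit over all genes these 5 were called higher and 0 of the 8 lower, where 36.6% of all 15479 genes were called higher and 41.2% lower. Since the choice favours TRAP, nothing is read from these calls. All 8 Purkinje cell markers, all 8 astrocyte markers and all 9 oligodendrocyte markers were lower in TRAP than in input. Of the 9 mature granule cell markers 7 were higher and 0 lower, and of the 4 unipolar brush cell markers 3 were higher and 1 lower. At P21 the latter summed to 1790 to 2370 CPM in TRAP and 660 in the input. The part of unipolar brush cells in the differences was not tested.

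The ages behind this average differed in both G protein coupled receptors. Adora1 at P7 read 50.3 CPM in the input (interval 47.9 to 52.9) and 22.2 ± 2.3 CPM in TRAP, so that all 5 TRAP libraries lay below the input. At P12 the input read 105.8 CPM and TRAP 216.0 ± 43.2, and at P21 the input read 251.4 CPM and TRAP 658.3 ± 71.3, with all 5 TRAP libraries above it at both ages. Gprc5c did the same at lower levels. The input read 2.02, 27.0 and 83.0 CPM at the 3 ages, and the TRAP mean was 0.343, 1.4 and 1.75 times it. Aqp6 stood below input in 4 of 5 TRAP libraries at P7 and in all 5 at P12, and above it in all 5 at P21, 1.72 times on average. Crtam went from 1.01 times input at P7 to 3.41 times at P21, and Chn2 from 2.01 to 2.93 times. Whether the ratio differs between ages was not tested, since each age has 1 input.

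The averaged log2 fold changes were 0.23 ± 0.25 for Gprc5c, 0.13 ± 0.31 for Adora1 and -0.01 ± 0.25 for Aqp6, none of them called. The P7 input moved those of Gprc5c and Adora1 most. Without it they were 0.60 and 1.15, and both were then called higher. With scaling by library size only, the median of all genes moved by -0.40 and the share of higher calls among all calls fell from 47.1% to 25.6%, and Gprc5c and Adora1 turned to -0.19 and -0.24, neither called. The other 5 genes stayed higher in TRAP under that scaling too.

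**Figure D3:**
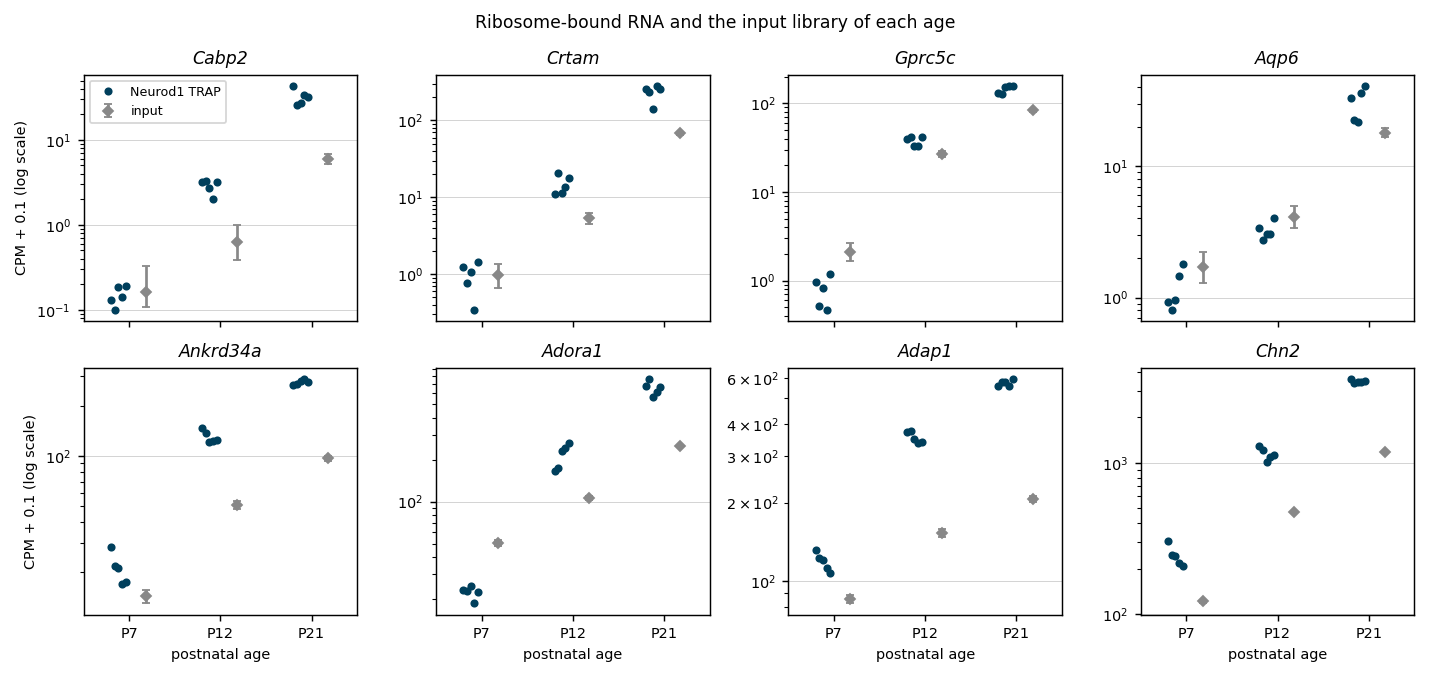
CPM with 0.1 added (log axis) in the 5 Neurod1 TRAP libraries (circles) and the 1 input library (diamond, bar is the 95% Poisson counting interval) at each age. Adora1 and Gprc5c lie below input at P7 and above it at P12 and P21.

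Neurod1 TRAP and Math1 TRAP at P7 compare differentiating granule cells with progenitors. The Math1 libraries had no part in the choice of the genes, but the Neurod1 P7 libraries are the baseline of the rise that chose them, so the test is not independent of the choice. Ankrd34a, Chn2, Adap1, Adora1, Aqp6 and Crtam were higher in Neurod1 TRAP, Gprc5c did not pass the test, and Cabp2 had too few counts to compare. So 6 of the other 7 were higher and 0 lower, where 36.5% of 14759 genes tested were called higher and 35.8% lower. Because of that dependence nothing is read from the count, and the p-values here and in the next paragraph are descriptive. Ankrd34a read 1.13, 0.609, 0.0687 and 0 CPM in the Math1 libraries, all below its Neurod1 libraries, and differed by 5.19 ± 0.28 on the log2 scale (adjusted p = 1.32e-12). Chn2 read 22.4, 12.1, 14.4 and 10.6 CPM in Math1 TRAP and differed by 3.99 ± 0.17 (2.13e-14). Adap1, at 9.91, 6.47, 10.3 and 7.72 CPM, differed by 3.77 ± 0.10 (1.29e-16), and Adora1, at 4.61, 3.46, 6.46 and 6.38 CPM, by 2.12 ± 0.18 (9.23e-10). For each of these 4 genes the groups did not overlap.

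Aqp6 was low in both groups, 0.305 ± 0.234 CPM in Math1 TRAP (n = 4) against 1.08 ± 0.418 in Neurod1 TRAP (n = 5), and differed by 1.81 ± 0.47 (adjusted p = 0.00179). Crtam had 14, 0, 1 and 0 counts in the Math1 libraries, and its difference of 2.09 ± 0.82 (adjusted p = 0.0282) lost the call without Math1 replicate 2, 3 or 4 or Neurod1 replicate 1 or 5, with adjusted p from 0.0569 to 0.124. It also lost the call with no filter on low counts (adjusted p = 0.0541) and with Math1 libraries 1 and 2 only (0.143). Gprc5c had similar levels, 0.807 ± 0.235 and 0.692 ± 0.305 CPM, with overlapping libraries (-0.31 ± 0.29, adjusted p = 0.347). Cabp2 had 0 counts in all 4 Math1 libraries and at most 2 in the Neurod1 libraries, both under the limit of 3 counts that a count of 0 allows, so no fold or test is given. It entered the fit only through its P12 and P21 counts. Math1 TRAP came from isolated progenitors and Neurod1 TRAP from whole cerebellum, and 7 of 8 Purkinje cell markers were higher in the latter, so the line, the preparation and the stage cannot be told apart.

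In culture, progenitors leave the cell cycle within days without the cerebellum around them. From DIV0 to DIV2, Crtam, Gprc5c, Ankrd34a, Adora1, Adap1 and Chn2 rose and Aqp6 did not pass the test, so 6 of the 7 tested genes rose and 0 fell, where 36.4% of 15978 genes were called higher and 35% lower. Cabp2, with 0 counts in all 4 of these libraries, was not tested. Adap1 went from 4.99 and 4.03 CPM to 92.8 and 95.2, a log2 fold change of 4.47 ± 0.09 (adjusted p = 1.12e-14). Chn2 went from 10.4 and 11.6 CPM to 179.0 and 180.4 (4.09 ± 0.07, adjusted p = 5.15e-15), and Adora1 from 3.73 and 4.24 to 37.9 and 40.2 (3.34 ± 0.10, adjusted p = 5.57e-13). Ankrd34a rose by 3.30 ± 0.44 (9.4e-06) and Crtam by 2.97 ± 0.37 (4.71e-06), both from a few counts at DIV0. Gprc5c rose least, by 1.27 ± 0.18 (1.29e-05), and Aqp6 stood at 2.28 and 2.10 CPM before and 2.52 and 1.93 CPM after (0.12 ± 0.23, adjusted p = 0.672). Over the same days all 8 progenitor markers and 7 of 9 oligodendrocyte markers fell (the latter from a sum of 753 to 756 CPM to 382 to 389). Of 8 vascular and meningeal markers 7 fell and 1 rose, while their sum went from 516 to 531 CPM to 1970 to 3320. The part of these cells in the changes was not tested.

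From DIV2 to DIV5 the genes parted. Gprc5c, Ankrd34a, Adora1 and Adap1 rose further, Aqp6 and Chn2 fell, and Crtam did not pass the test. The 4 rises stand against 31.1% of all genes called higher and the 2 falls against 35.7% called lower, and with scaling by library size only the share of higher calls among all calls moved from 46.6% to 57.4%. Gprc5c went from 5.24 and 6.85 CPM to 28.7 and 29.6, the largest rise of this step (2.20 ± 0.12, adjusted p = 1.29e-09). Ankrd34a rose by 1.58 ± 0.22 (1.79e-05), Adora1 by 1.32 ± 0.07 (5.22e-10) and Adap1 by 0.24 ± 0.06 (0.00288). Chn2 fell by 0.23 on the log2 scale (SE 0.05, adjusted p = 0.00163), a call lost without DIV2 replicate 2 (adjusted p = 0.0714) and with scaling by library size only (0.13). Aqp6 fell by 0.85 (SE 0.25, adjusted p = 0.00891), a call lost without DIV2 replicate 1 (0.162) or DIV5 replicate 2 (0.0576) and in DESeq2's Wald test (0.105). Crtam stood at 2.80 and 2.81 CPM at DIV2 and 3.604 and 2.44 at DIV5 (-0.01 ± 0.24, adjusted p = 0.961). Over the same days all 7 microglia markers rose, from a sum of 54.3 to 56.6 CPM to 415 to 423, and 8 of 8 astrocyte and 5 of 8 vascular and meningeal markers rose. Of the 8 progenitor markers, 5 rose and 3 fell, and their sum went from 280 to 307 CPM to 340 to 343. The part of all these cells in the changes was not tested.

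Over the whole culture, DIV5 against DIV0, 6 of the 7 tested genes were higher and Aqp6 was lower, where 40.2% of all genes were called higher and 38.2% lower. The DIV0 and DIV5 libraries are those of the steps above, so these values are no further evidence. Ankrd34a had the largest difference, 4.88 ± 0.35 (adjusted p = 7.82e-09), and Crtam the smallest of the 6, 2.95 ± 0.37 (3.66e-06). The fall of Aqp6, 0.73 (SE 0.26, adjusted p = 0.0182), lost its call without DIV0 replicate 1 or 2 or DIV5 replicate 2 (adjusted p from 0.0505 to 0.0888). Cabp2 had 5 and 3 counts at DIV5, a mean 2.72 times the level that 3 counts over the DIV0 group would give. The counting error of the DIV5 counts is not in that ratio.

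None of the 17 culture libraries reached the lowest P21 TRAP library for any of the 8 genes, as held for 25.7% of 16426 genes, and the genes were chosen for high P21 levels. The DIV5 DMSO mean came to 20.6% of the P21 TRAP mean for Adap1, 20% for Gprc5c and 15.9% for Adora1. It came to 4.75% for Chn2, 4.36% for Aqp6, 1.67% for Ankrd34a, 1.3% for Crtam and 0.623% for Cabp2. Set against P7 TRAP, the order was another one: the DIV5 culture stood at 4211% of the P7 level for Gprc5c (28.7 and 29.6 CPM against a mean of 0.692) and at 22% of it for Ankrd34a (4.93 and 4.33 CPM against a mean of 21.1). The P7 mean of Gprc5c rests on 9 to 28 counts per library. Cultures hold total RNA and TRAP libraries ribosome-bound RNA, and the part of this was not tested. In the P7 input, also total RNA, Gprc5c read 2.02 CPM and Ankrd34a 14.2.

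The UNC1999 cultures ask which genes depend on EZH2 or EZH1 activity at DIV5. Crtam and Chn2 were higher with UNC1999, and the other 5 tested genes did not pass the test. That is 2 of 7 higher and 0 lower, where 6.36% of 15978 genes were called higher and 5.53% lower. Crtam read 3.604 and 2.44 CPM in DMSO and 9.23 and 6.94 in UNC1999, without overlap, a log2 fold change of 1.45 ± 0.20 (2.72-fold, adjusted p = 0.000444). Chn2 read 168.2 and 159.5 CPM in DMSO and 271.2 and 269.6 in UNC1999 (0.74 ± 0.05, 1.67-fold, adjusted p = 2.88e-06). Both UNC1999 libraries still lay below every P21 TRAP library for both genes.

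Adora1 stood at 108.5 and 100.3 CPM in DMSO and 106.4 and 111.6 in UNC1999 (0.08 ± 0.06, adjusted p = 0.458), and Gprc5c changed by 0.16 ± 0.10 (0.331), Adap1 by 0.14 ± 0.06 (0.144), Ankrd34a by -0.24 ± 0.18 (0.445) and Aqp6 by -0.63 ± 0.29 (0.191). None of these 5 was called. Cabp2 had 5 and 3 counts in DMSO and 4 and 10 in UNC1999, a ratio of 1.33 with an interval of 0.521 to 3.66. Of the 9 mature granule cell markers 7 were higher with UNC1999, among them Gabra6, a GABA receptor subunit of mature granule cells (1.90 ± 0.09, adjusted p = 1.09e-07), and 5 of 8 astrocyte markers were lower. The part of the cell mix was not tested. Over all genes 1899 were called, but 939 without DMSO replicate 1, 1098 and 932 without UNC1999 replicate 1 or 2, and 946 in DESeq2's Wald test, and both genes kept their call in each of these.

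**Figure D4:**
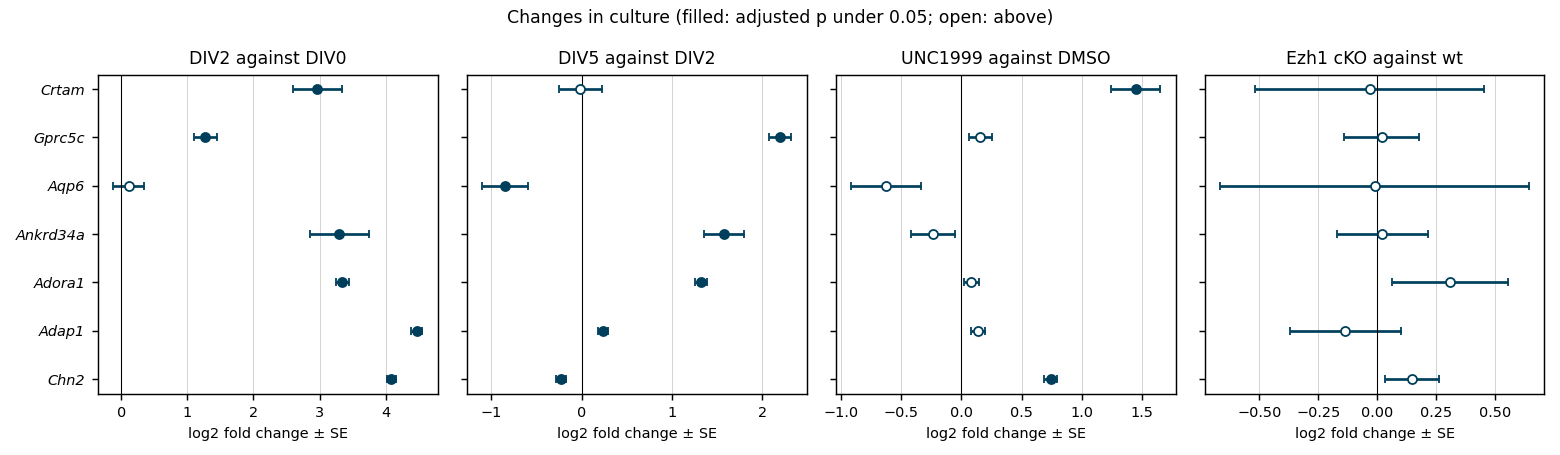
Log2 fold change ± SE (horizontal axes, scaled per panel) of the 7 tested genes in 4 culture comparisons; filled points have an adjusted p under 0.05. Crtam and Chn2 are the filled points under UNC1999, and no point is filled for Ezh1 cKO.

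In the Ezh1 cultures the targeted gene was checked first. Ezh1 stood at 38.6 ± 3.07 CPM in wt (n = 5) and 30.7 ± 1.21 in cKO (n = 4), a log2 fold change of -0.34 ± 0.09 that was not called (adjusted p = 1). Its libraries did not overlap, at 34.81 to 42.55 CPM in wt and 29.16 to 32.04 in cKO, as held for 0.964% of 15656 genes. The unadjusted p was 0.00505 in edgeR's quasi-likelihood test. Reads outside the floxed part would still count, and which part that is is not given in the sources used here. None of the 7 tested genes was called, with log2 fold changes from -0.14 ± 0.24 for Adap1 to 0.31 ± 0.25 for Adora1, and 0% of 14461 genes were called either way in edgeR, 169 of them having an unadjusted p under 0.05 and DESeq2's Wald test calling 1. Cabp2, with 14, 10, 2, 1 and 4 counts in wt and 7, 9, 1 and 3 in cKO, was not tested.

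These libraries fell into 2 sets by replicate number. Replicates 1 and 2 of both genotypes (4 libraries) stood apart from replicates 3 and above (5 libraries) in 6 of the 8 genes, with no overlap. Since 52.9% of 15656 genes with at least 10 counts in some Ezh1 library separated in this way, the split was broad. Aqp6 averaged 0.546 CPM in the first set and 2.01 in the second, 3.68 times as much, and Adap1 103.4 and 156.1 CPM, 1.51 times as much. Crtam went the other way, 8.91 against 3.57 CPM, 2.5 times as much in the first set. So did Cabp2 (0.46 against 0.14 CPM), Adora1 (166.9 against 108.8) and Ankrd34a (8.67 against 6.37). Gprc5c and Chn2 overlapped between the sets. In the first set microglia markers summed to 214 to 302 CPM against 23.3 to 43.3, oligodendrocyte markers to 906 to 1320 against 227 to 305, vascular and meningeal markers to 5030 to 7040 against 2880 to 4390, and T and natural killer cell markers to 2.54 to 4.23 against 0.358 to 0.796. Markers of GABAergic interneurons were lower in the first set, 60.1 to 113 against 239 to 313 CPM, as were those of unipolar brush cells, 41.3 to 67.8 against 89.1 to 131. The part of these cells in the difference was not tested. The sets were seen in the data and the labels do not name them, so their difference has no test.

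Within the sets the genotype difference of Adora1, the largest of the 7, was a mean of 161.8 CPM in wt and 172.1 in cKO in the first set and 94.3 and 130.5 in the second. With the set as a factor it was 0.29 on the log2 scale (unadjusted p = 0.044, adjusted p = 0.578). Chn2 was the one gene of the 8 whose genotypes did not overlap, 93.0 to 127.8 CPM in wt and 129.1 to 136.1 in cKO, as held for 0.964% of 15656 genes. It was higher in cKO in 4 of 4 same-numbered pairs, as was Adora1. With the replicate number as a block, Chn2 was not called (0.07 on the log2 scale, adjusted p = 0.705). The labels do not say that same-numbered libraries are pairs. Aqp6 read 0.370 and 0.376 CPM in wt and 0.657 and 0.783 in cKO in the first set, and 1.93, 2.19 and 1.95 against 1.59 and 2.39 in the second.

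**Figure D5:**
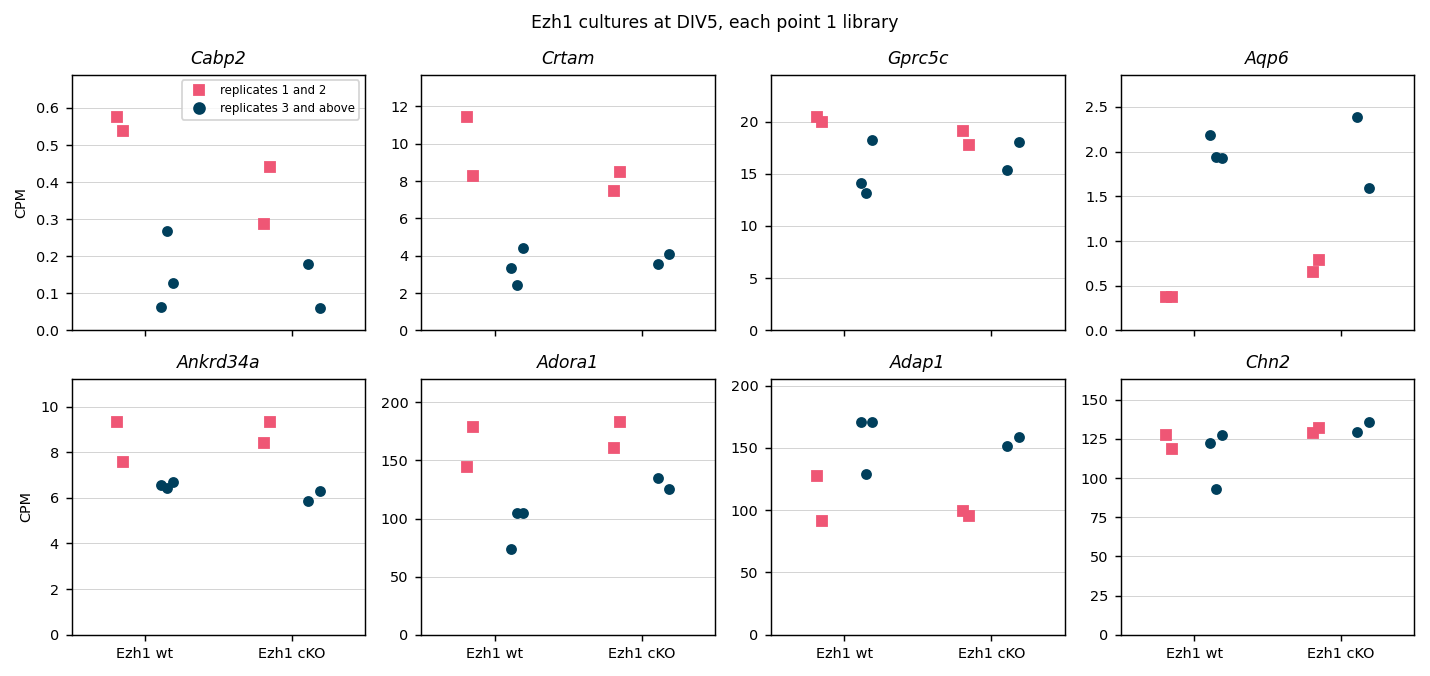
CPM (linear axis from 0) of each gene in the 5 wt and 4 cKO libraries at DIV5, with replicates 1 and 2 as squares and replicates 3 and above as circles. The sets separate in every panel but those of Gprc5c and Chn2, in both genotypes.

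To see whether families and partners of the 8 genes moved as they did, 92 related genes in 8 lists were followed from P7 to P21 in Neurod1 TRAP. Of the 76 tested, 34 were higher, 23 lower and 19 not called, where 38.9% of 14759 genes were called higher and 42.5% lower, and their median log2 fold change was 0.25 against -0.05 for all genes. Of 13 calcium sensors tested, 10 were higher and 2 lower, among them Cabp1 (2.53 ± 0.11, adjusted p = 3.72e-15) and Cabp7 (1.60 ± 0.23, 1.1e-06), the neuronal relatives of Cabp2. Cabp1 had means of 10.9, 22.1 and 65.5 CPM at P7, P12 and P21, while Cabp7 had its highest mean at P12, 1.52, 6.54 and 4.79 CPM at the 3 ages. Of 10 nectin and nectin-like adhesion genes, 6 were higher and 2 lower. Cadm1, which encodes the binding partner of the Crtam protein, was higher by 0.75 ± 0.11 (2.25e-06) and stood at 59.7, 125.5 and 104.4 CPM at the 3 ages, highest at P12, and Cadm3 was higher by 2.11 ± 0.13 (8.34e-13). Gprc5b, the one relative of Gprc5c that was tested, was higher by 2.98 ± 0.10 (4.92e-17).

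Among 15 genes of adenosine signalling 4 were higher and 6 lower. Adora2a, a stimulatory adenosine receptor, fell by 1.22 (SE 0.31, adjusted p = 0.00121) to 0.368 ± 0.17 CPM at P21. Adora2b (0.64 ± 0.46, adjusted p = 0.199) and Nt5e, the ectonucleotidase that makes adenosine (0.44 ± 0.21, 0.0582), did not pass the test. Ankrd34b fell by 0.27 (SE 0.08, adjusted p = 0.00442), and Ankrd34c, at most 0.0923 CPM in any TRAP group mean, was not tested. Among 16 Arf regulators 8 were higher and 6 lower. Arf6, the GTPase that Adap1 acts on, fell by 0.39 (SE 0.06, adjusted p = 1.18e-06), and Adap2, at 0.428 ± 0.159 CPM at P21, did not pass the test (0.06 ± 0.40, 0.898). Among 14 Rac regulators 3 were higher and 6 lower, and Chn1, the other chimaerin, at 42.9 ± 4.16 CPM at P21, did not pass the test (0.07 ± 0.08, 0.47). Of 6 aquaporins tested 2 were higher and 0 lower, and Aqp4, the astrocyte water channel, did not pass the test (0.06 ± 0.26, 0.843). Scaling by library size only moved the median of all genes by -0.17 in this comparison.

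Across the 13 group means of log2(CPM + 1), the members' profiles were more alike in some pairs than in others. Adap1 and Chn2 had a Pearson r of 0.939, Adora1 and Adap1 0.935, Cabp2 and Crtam 0.931, and Aqp6 and Adap1 0.537, the lowest. The groups differ in preparation, and the genes were chosen for a shared rise, so these are descriptions. Of 12472 named genes whose mean reached 5 CPM in some group, the 3 most like each member were taken by the same r. For Chn2 they were Arhgap44, Nsf and Coro2a (r from 0.991 to 0.994). For Adap1 they were Lrrc3b, Ckmt1 and Ablim3 (0.985 to 0.992), and for Ankrd34a Chchd10, Atp6v1g2 and Nap1l5 (0.985 to 0.989). For Cabp2 they were Tssk5, Fbrsl1 and Pbx2 (0.968 to 0.988), for Crtam Slc16a11, Pigz and Lpcat4 (0.977 to 0.981) and for Gprc5c Kank2, Mfsd14b and Ficd (0.971 to 0.984). For Adora1 they were Zbtb7b, Tmem189 and Tspan17 (0.972 to 0.981), and for Aqp6 Nipal2, Peli3 and Crebl2 (0.952 to 0.968). The choice is loose: 11 of these 24 were again among the 3 most alike without the inputs, and 2 of 24 by Spearman correlation.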

How the data were processed

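What the authors deposited is 1 table of estimated counts, without normalization, whose values are whole numbers. Salmon 0.8.2 and mm10 appear in the submitters' processing notes, and the annotation is not given in the sources used here. Of its 24100 Entrez genes, 24045 had a RefSeq symbol, and 1041 are blank in the Ezh1 libraries and were left out there. The 8 genes and all lists were chosen with earlier results of these data known.

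Each comparison was fitted over all genes in edgeR 4.0.16 (R 4.3.3) with filterByExpr (minimum count 10, minimum total 15), TMM scaling, the two-sided robust quasi-likelihood test and Benjamini-Hochberg adjustment, with calls at an adjusted p under 0.05. One fit held the Math1 and Neurod1 TRAP libraries, another the C57Bl/6J cultures, another the Ezh1 cultures, and the fit of TRAP against input had age as a factor. CPM use TMM scaling over all 39 libraries. After a CPM, ± is the SD, and after a log2 fold change, the SE. As alternatives, DESeq2 1.42.0 gave size factors and a Wald test, and fits were repeated with library sizes unadjusted, with no filter, with libraries left out and with a replicate block. The fits were tested on simulated data. The genes named are the 8, 14 relatives, the 3 most alike per gene, Gabra6 and Ezh1, and the lists hold 92 relatives and markers of 11 cell types. Promoter windows came from RefSeq and gene positions from GENCODE, both on the build named in the notes.

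In the Ezh1 cultures the deviations of same-numbered libraries from their genotype means correlated at 0.821 to 0.9 over 4 pairs. Same-numbered libraries also share the sets by replicate number described above, and differently numbered libraries were not compared. Pairing by number is therefore not shown, and the labels do not give it.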

Additional observations from a re-analysis of the deposited data

Results flagged for a closer look

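Among 130 sets of 4 or 5 libraries of the 8 genes and their 14 close relatives, 3 held a library far from the others; chance flags about 1 in 20. Crtam in Math1 TRAP replicate 1 was 0.608 CPM (14 counts), while the other 3 lay between 0 and 0.0687 CPM. Chn2 in the Ezh1 wt replicate 5 was 93.0 CPM, below the other 4 at 118.8 to 127.8 CPM. Adora2b in Math1 TRAP replicate 1 was 0.0869 CPM (2 counts), below the other 3 at 0.266 to 0.275 CPM.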

How the results depend on the processing

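Of 51 pairs of a gene among the 8 and a comparison, 36 kept direction and call in every alternative. Most reversals concern differences that were near 0 and not called in the main fit. For TRAP against input, library size only gave -0.19 for Gprc5c and -0.24 for Adora1, DESeq2's Wald test -0.18 for Gprc5c, and Aqp6 was 0.0265 with DESeq2 size factors and 0.0629 with no filter. Leaving out 1 library gave -0.11 to 0.60 for Gprc5c, -0.48 to 0.25 for Aqp6 and -0.33 to 1.15 for Adora1. Of these, Gprc5c and Adora1 were called higher without the P7 input. With Math1 libraries 3 and 4 only, Gprc5c at P7 was 0.13. For DIV2 against DIV0, leaving out 1 library gave -0.15 to 0.19 for Aqp6. For DIV5 against DIV2, Crtam was 0.13 by library size only, 0.0149 with DESeq2 size factors, 0.0219 with no filter and 0.0302 in DESeq2, and -0.31 to 0.26 with 1 library left out. The genes lower there numbered 1 by library size only and in DESeq2, and 1 to 2 with 1 library left out. For DIV5 against DIV0 that number was 0 in DESeq2 and 0 to 1 with 1 library left out. For UNC1999, 946 genes were called in DESeq2 and 932 to 1297 with 1 library left out. For Ezh1 cKO, 1 gene was called in DESeq2 and 1 with the library set as a factor, which gave 0.27 for Aqp6 and -0.0327 for Ankrd34a. Libraries 1 and 2 only gave -0.14 for Gprc5c and 0.93 for Aqp6, and libraries 3 and above 0.18 for Crtam and -0.11 for Ankrd34a. Leaving out 1 library gave -0.24 to 0.36 for Crtam, -0.066 to 0.0996 for Gprc5c, -0.43 to 0.24 for Aqp6 and -0.0917 to 0.14 for Ankrd34a. Among the genes most like each of the 8, 2 of 24 stayed by Spearman correlation and 11 without inputs. The cause of these changes was not tested. With few counts, Cabp2 in culture and Crtam, Aqp6 and Cabp2 at P7 are limited by depth.

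With the replicate number as a block, no call among the 8 genes changed, Cabp2 at P7 left aside for its few counts. Crtam for DIV5 against DIV2 was then 0.0147, and in the Ezh1 cultures Gprc5c was -0.0595, Aqp6 0.28 and Ankrd34a -0.0341. For Math1 and Neurod1 TRAP same-numbered libraries correlated at -0.0108 to 0.0902, which does not show pairing. Same-numbered DIV2 and DIV5 DMSO libraries correlated at -0.206. With the DIV2 numbers crossed in the block, 4 of the 8 genes were higher and 2 lower, as before. No paired analysis was possible because inputs carry no number for TRAP against input.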
